A study of Mus musculus with 4 samples.

Results

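The 7 genes described here were the MHC class II genes H2-Aa, H2-Ab1, H2-Eb1, Cd74, Ciita, H2-DMa and H2-DMb1, taken by symbol from the 31053 genes of each library, and all 7 were found. Their UMIs (unique molecular identifiers, 1 for each captured transcript) were read in single-cell RNA-seq of cells sorted as CD3+ CD8+ from Myc-CaP tumors, which grow from a prostate cancer line of the mouse and here were s.c. in male FVB mice. There were 4 libraries, 1 per group. The aPD-L1 library came from tumors of mice given anti-PD-L1 i.p. weekly at 10 mg/kg, the Oxali library from mice given oxaliplatin, a platinum drug, i.p. weekly at 6 mg/kg, the Combo library from mice given both, and the Ctrl library from untreated mice, all bearing the same tumor line. How many mice were pooled in a library is not given in the sources used here, and no group had a replicate, so every value describes 1 library and every interval covers counting error only.

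MHC class II molecules present peptides from the endosomal pathway to CD4+ T cells. In the mouse they are made mainly by dendritic cells, B cells and macrophages, and interferon-γ raises them in macrophages through the coactivator CIITA, whereas mouse T cells in general do not express them. On GRCm38, 5 members lie in the MHC on chromosome 17, from the start of H2-DMa at 34119541 to the end of H2-Eb1 at 34316674, and Ciita lies on chromosome 16 (10480059 to 10528418, plus strand). H2-Aa and H2-Ab1 encode the α and β chains of the I-A molecule, H2-Eb1 encodes the β chain of I-E, Cd74 encodes the invariant chain that guides class II to the endosome, and H2-DMa and H2-DMb1 encode the chains of the DM molecule that exchanges the invariant chain peptide for antigen. Ciita encodes the coactivator itself.

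CIITA does not bind DNA on its own but is held at class II promoters by factors on a set of short boxes called X1, X2 and Y. The promoters of 4 members are shown to let a reader see which of them carry the letters of these boxes, each as the 120 bases before the RefSeq start on GRCm38.p6, 5′ to 3′ on the gene's strand. Capitals mark a Y box core (ATTGG, or CCAAT for the same letters on the other strand), an X1 core (AACNGATG) or an X2 core (TGACGTCA), all searched on both strands with letters chosen after the sequences had been read.
H2-Aa, chr17:34287824-34287943, minus strand: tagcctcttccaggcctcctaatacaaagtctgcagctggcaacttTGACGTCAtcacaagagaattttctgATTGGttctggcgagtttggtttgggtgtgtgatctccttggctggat
H2-Eb1, chr17:34305747-34305866, plus strand: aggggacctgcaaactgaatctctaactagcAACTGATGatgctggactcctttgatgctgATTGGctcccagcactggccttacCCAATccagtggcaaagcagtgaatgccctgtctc
H2-DMb1, chr17:34153071-34153190, plus strand: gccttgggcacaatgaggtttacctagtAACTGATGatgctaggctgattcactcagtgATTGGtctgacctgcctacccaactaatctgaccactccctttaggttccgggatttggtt
H2-DMa, chr17:34122712-34122831, plus strand: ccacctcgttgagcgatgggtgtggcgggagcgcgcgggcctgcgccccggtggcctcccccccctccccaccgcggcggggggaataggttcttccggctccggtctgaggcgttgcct
In H2-Aa the X2 core began 74 bases and the Y core 48 bases before the start. H2-Eb1 and H2-DMb1 carried the same X1 letters, at 89 and 92 bases before the start, followed by a Y core at 59 and 61 bases. Over all 32851 promoter windows of 250 bases before to 50 bases after a start, 37.4% held a Y core, 2.32% an X1 core, 1.79% an X2 core and 1.51% a Y core together with an X core. The H2-DMa window shown held none of these letters and had 29 CpG dinucleotides, against a median of 7 over all windows. Brd2, on the minus strand, starts at 34122634, inside this window of 34122582 to 34122881. The bases shown thus lie before the start of Brd2 and before this RefSeq start of H2-DMa, and the CpG count is not particular to H2-DMa. The gene model that gave the position of H2-DMa above starts at 34119541, so the same bases lie inside that model. The annotations differ on the start, and which start was used in these cells was not tested. A second H2-DMa window held a Y core alone, 198 bases before its start. A match is a description of letters and not of a bound site. H2-Ab1, Ciita and Cd74 are named only.

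The libraries held 1642 barcodes in aPD-L1, 1426 in Oxali, 1324 in Combo and 1116 in Ctrl, and any pair of libraries shared 0 or 1 barcode. A total of 4948 barcodes reached 500 genes without passing 10% mitochondrial UMIs. The kept barcodes held 6086382 UMIs in aPD-L1, 5706229 in Oxali, 5640719 in Combo and 5340714 in Ctrl. They were clustered with the class II genes left out, and clusters were named from markers, so that class II levels did not choose the classes. The sort should have excluded myeloid cells, yet 593 barcodes were macrophage-like by markers such as C1qa, Apoe and Lyz2, and 222 were plasmacytoid-like, with Siglech in 99.5% of them. T-like barcodes numbered 3145. Of the macrophage-like barcodes 550 (92.7%) carried at least 3 UMIs of the 8 T-cell markers, and only 43 carried fewer. Shares of cells depend on this gate and are not read as tumor content.

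Class II transcripts in this CD8 sort came mostly from macrophage-like barcodes in aPD-L1, Oxali and Ctrl, and from macrophage-like and plasmacytoid-like barcodes in Combo. Of the UMIs of all 7 members, macrophage-like barcodes held 73.8% in aPD-L1, 74.7% in Oxali, 49.2% in Combo and 66.1% in Ctrl. Plasmacytoid-like barcodes held 11.6% in aPD-L1, 14.4% in Oxali, 39.7% in Combo and 23.05% in Ctrl. T-like barcodes, which were 49.5% to 69.5% of the kept barcodes of a library, held 6.12% in aPD-L1, 4.28% in Oxali, 3.55% in Combo and 2.81% in Ctrl. Fewer cells of a class and less RNA per cell both lower such a share.

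Levels were expressed as CPM, in which the UMIs of a gene are scaled to the total UMIs of all barcodes of that class in that library. The UMIs of H2-Aa, H2-Ab1, H2-Eb1 and Cd74 were added to a 4-gene sum. In macrophage-like barcodes with T transcripts this sum was 7701 CPM in aPD-L1, 10105 CPM in Oxali, 9630 CPM in Combo and 9322 CPM in Ctrl. Plasmacytoid-like barcodes had 9542 CPM in aPD-L1, 8971 CPM in Oxali, 10154 CPM in Combo and 8602 CPM in Ctrl. T-like barcodes had 238 CPM in aPD-L1, 237 CPM in Oxali, 254 CPM in Combo and 209 CPM in Ctrl. The myeloid classes therefore did not overlap with the T-like class in any library. With the libraries added, macrophage-like barcodes with T transcripts were 38.7-fold (95% interval 37.2 to 40.3) and plasmacytoid-like barcodes 40.1-fold (38.5 to 41.8) over T-like barcodes. These 2 myeloid classes were close to each other, with a ratio of macrophage-like to plasmacytoid-like CPM of 0.97 (0.95 to 0.98), above 1 in Oxali and Ctrl and below 1 in aPD-L1 and Combo.

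**Figure D1:**
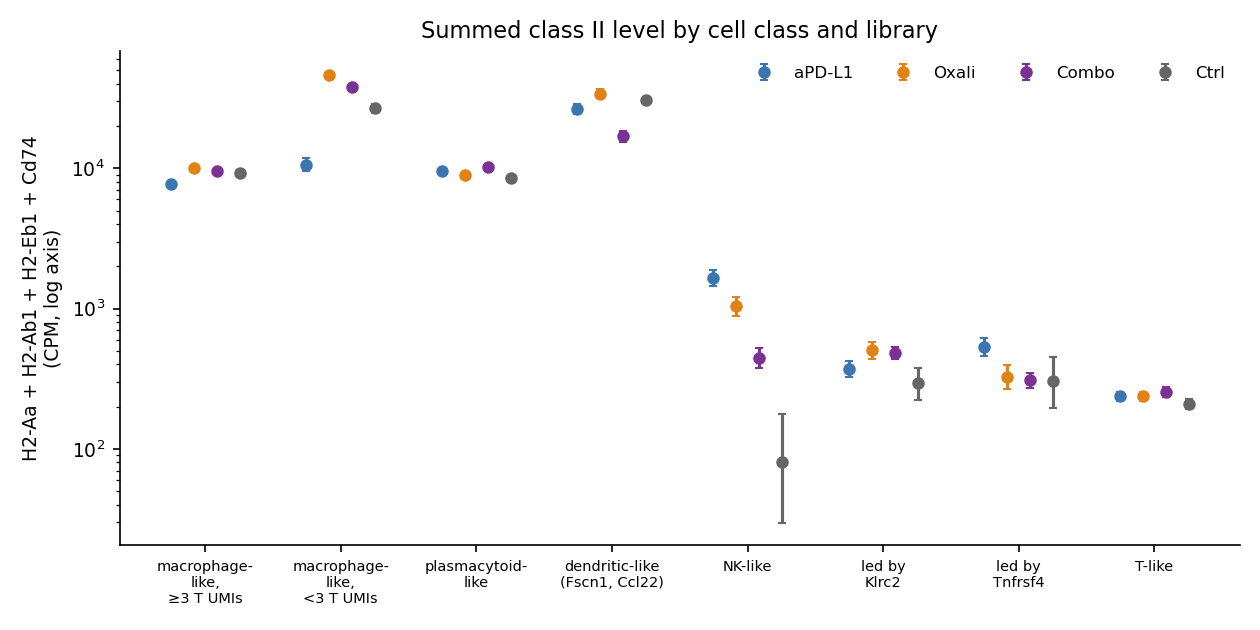
Summed level of H2-Aa, H2-Ab1, H2-Eb1 and Cd74 (CPM, log axis) in 8 cell classes, with 1 point per library and exact Poisson 95% intervals. Macrophage-like, plasmacytoid-like and dendritic-like classes sit at 7701 CPM or more in every library, and the T-like class sits between 209 and 254 CPM.

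Order among the other classes followed the same divide. A small dendritic-like class led by Fscn1 and Ccl22, markers of mature dendritic cells, had 26462 CPM in aPD-L1, 34190 CPM in Oxali, 16913 CPM in Combo and 30917 CPM in Ctrl. Its 10 dendritic markers summed to 202 CPM in aPD-L1, 2533 CPM in Oxali, 6521 CPM in Combo and 3632 CPM in Ctrl, and only 1 of the 3 aPD-L1 barcodes had 3 or more of their UMIs, so that the markers do not bear out the name in aPD-L1. The class held only 3, 4, 5 and 10 barcodes in the same order, and 1 barcode held 22.4% to 63.8% of the UMIs. NK-like barcodes had 1664 CPM in aPD-L1, 1037 CPM in Oxali, 447 CPM in Combo and 80.8 CPM in Ctrl. That spread rested on few cells, since 1 NK-like barcode held 92.8% of the class II UMIs in aPD-L1. Lymphocytes led by Klrc2 had 371 CPM in aPD-L1, 505 CPM in Oxali, 484 CPM in Combo and 293 CPM in Ctrl. Lymphocytes led by Tnfrsf4 had 533 CPM in aPD-L1, 325 CPM in Oxali, 308 CPM in Combo and 306 CPM in Ctrl. A non-immune cluster with Krt7 and Cldn3 had 0 UMIs in aPD-L1 and Combo and 4 UMIs each in Oxali and Ctrl, or 13.7 CPM over the 4 libraries.

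In macrophage-like barcodes with T transcripts the members were given by role, first the chains of the surface molecules. H2-Aa was at 1081 CPM in aPD-L1, 1619 CPM in Oxali, 1510 CPM in Combo and 1420 CPM in Ctrl. H2-Ab1 was at 1174 CPM in aPD-L1, 1858 CPM in Oxali, 1700 CPM in Combo and 1895 CPM in Ctrl. Both chains of I-A were lowest in aPD-L1. H2-Eb1 was at 30.7 CPM in aPD-L1, 48.7 CPM in Oxali, 41.1 CPM in Combo and 33.8 CPM in Ctrl, and its intervals overlapped in all 4 libraries. H2-Eb1 had 345 UMIs over all kept barcodes, where H2-Ab1 had 12518. The reads were counted on the C57BL/6 genome while FVB mice carry another MHC haplotype, and its part in the H2-Eb1 level was not tested.

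Cd74 was at 5416 CPM in aPD-L1, 6579 CPM in Oxali, 6379 CPM in Combo and 5974 CPM in Ctrl, so that the invariant chain varied less between the libraries than the I-A chains. H2-DMa was at 146 CPM in aPD-L1, 254 CPM in Oxali, 204 CPM in Combo and 218 CPM in Ctrl. H2-DMb1 was at 123 CPM in aPD-L1, 195 CPM in Oxali, 144 CPM in Combo and 168 CPM in Ctrl. Both DM chains were lowest in aPD-L1 and highest in Oxali. Ciita had only 15 UMIs in aPD-L1, 32 in Oxali, 9 in Combo and 38 in Ctrl, or 11.2, 29.95, 15.4 and 25.7 CPM in that order.

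A gene was called higher or lower than in Ctrl where the ratio of CPM was at least 1.5-fold and its exact 95% interval left out 1. In aPD-L1 2 of 7 members were called lower and 0 of 7 higher, where 8.58% of the 8413 genes tested were called lower and 3.11% higher. H2-Ab1 had a ratio of 0.62 (0.58 to 0.66) and Ciita a ratio of 0.44 (0.22 to 0.81). Neither was called when class II genes entered the clustering (0.88 for H2-Ab1 and 0.71 for Ciita) or under a stricter cell filter (0.80 and 0.63). H2-DMa at 0.67 (0.56 to 0.80), H2-DMb1 at 0.73 (0.59 to 0.89) and H2-Aa at 0.76 (0.71 to 0.81) lay below 1 without reaching 1.5-fold, and the 4-gene sum was at 0.83 (0.81 to 0.85). The median log2 ratio was -0.46 over the 7 members and -0.04 over all genes tested. In Oxali 0 of 7 members were called in either direction, where 2.6% of genes were called higher and 5.07% lower, and the 4-gene sum was at 1.08 (1.06 to 1.11). In Combo 0 of 7 were called, where 4.52% were called higher and 5.35% lower, and the 4-gene sum was at 1.03 (1.00 to 1.07). All 3 comparisons used the same Ctrl library.

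Genes of other programs in the same barcodes also differed between the libraries. C1qa, C1qb and C1qc, the complement chains that mark tissue macrophages, summed to 4815 CPM in aPD-L1, 4200 CPM in Oxali, 4301 CPM in Combo and 2730 CPM in Ctrl, which put all 3 treated libraries over Ctrl at 1.76, 1.54 and 1.58. Class II per 100 UMIs of C1q was 160 in aPD-L1, 241 in Oxali, 224 in Combo and 341 in Ctrl. A list of 20 heat shock and immediate early genes summed to 7692 CPM in aPD-L1, 5822 CPM in Oxali, 4842 CPM in Combo and 15444 CPM in Ctrl, and Ctrl was also highest in plasmacytoid-like and T-like barcodes. The part of this stress level in the class II values was not tested. Leaving these genes out of the totals changed no call on the 4-gene sum, but this cannot decide the question. No ratio of that sum to Ctrl was called before, and the list was a small part of the totals.

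**Figure D2:**
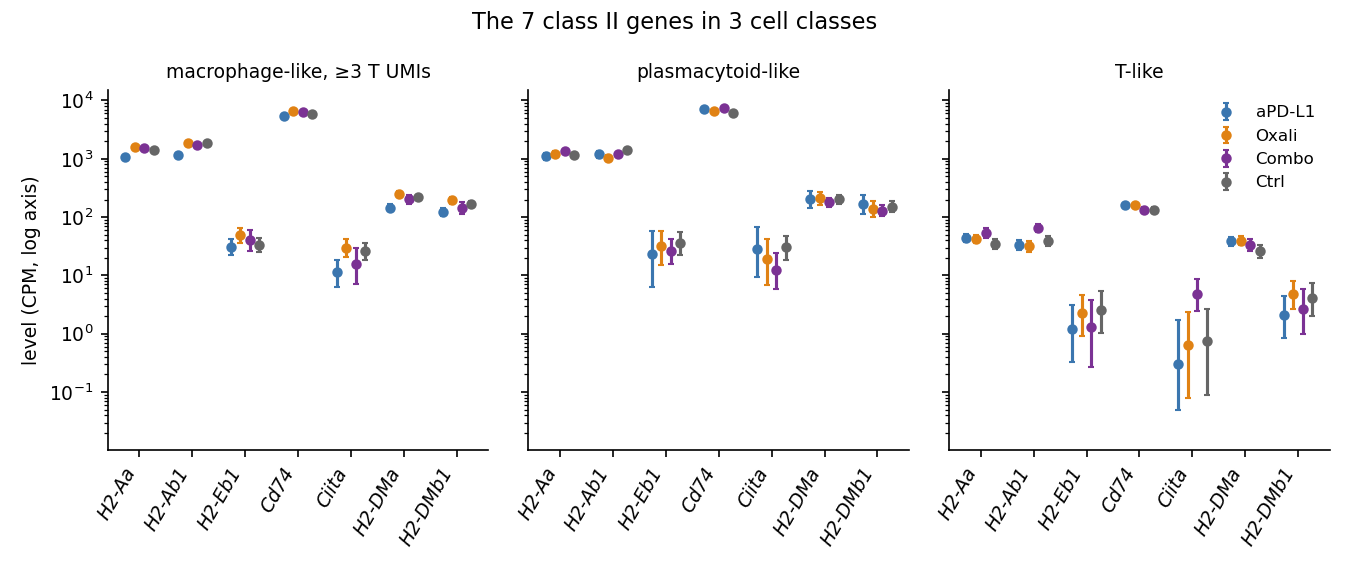
Level of each of the 7 members (CPM, log axis) in macrophage-like barcodes with T transcripts, plasmacytoid-like and T-like barcodes, with 1 point per library and exact Poisson 95% intervals. H2-Ab1 in the macrophage-like panel is at 1174 CPM in aPD-L1 and 1895 CPM in Ctrl, and H2-DMa in the T-like panel is at 26.0 to 39.3 CPM.

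Within the macrophage-like class the level was uneven from barcode to barcode. The 10% of barcodes with most class II UMIs held 61.0% of the 4-gene sum in aPD-L1, 61.7% in Oxali, 58.2% in Combo and 44.3% in Ctrl. The median barcode had 17.3 class II UMIs per 10000 in aPD-L1, 21.8 in Oxali, 49.7 in Combo and 49.7 in Ctrl. Barcodes with fewer than 10 per 10000 made up 39.8% in aPD-L1, 44.9% in Oxali, 29.8% in Combo and 27.0% in Ctrl. Barcodes with at least 100 per 10000 made up 23.8% in aPD-L1, 26.0% in Oxali, 26.6% in Combo and 29.7% in Ctrl. Plasmacytoid-like barcodes were more even, with 27.2% to 40.6% of the sum in their highest 10% and at most 6.25% of barcodes under 10 per 10000.

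A second run of the clustering from another random start, made after the data had been seen and again without class II genes, placed nearly all of these barcodes in 2 clusters that differed in class II. One was led by Il1b, Cxcl2, Thbs1 and Tgfbi and contained inflammatory monocyte genes, and the other was led by Atp6v0d2, Ccl8, Fabp5 and Hmox1 and contained C1qb. By its markers the first was macrophage-like, and the second, which held 498 barcodes in all, stayed unnamed, so only its barcodes that the first clustering had called macrophage-like are used here. The cluster led by Il1b had a 4-gene sum of 10712 CPM in aPD-L1, 14878 CPM in Oxali, 14973 CPM in Combo and 10234 CPM in Ctrl. The cluster led by Atp6v0d2 had 1884 CPM in aPD-L1, 2786 CPM in Oxali, 4526 CPM in Combo and 1964 CPM in Ctrl. The 2 clusters did not overlap in any library, and their ratio was 5.69 in aPD-L1, 5.34 in Oxali, 3.31 in Combo and 5.21 in Ctrl. As a description of clusters drawn from the same cells, the ratio with the libraries added was above 1 for all 7 members, from 3.17-fold (1.98 to 5.35) for H2-Eb1 to 4.49-fold (4.14 to 4.87) for H2-Ab1 among the 6 genes other than Ciita. The share of all genes above 1 between these clusters was not computed, so this count cannot be read as particular to the members. Ciita had 92 UMIs in the cluster led by Il1b and 2 UMIs in the one led by Atp6v0d2. Depth moved with this difference, with a median of 10606 UMIs per barcode in the cluster led by Il1b and 3681 in the one led by Atp6v0d2, as did T marker RNA at 4122 CPM and 6898 CPM, and their part in it was not tested. C1q differed less, at 4220 CPM and 3201 CPM in the same order, but C1qb and C1qc were among the leading genes of the cluster led by Atp6v0d2.

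The macrophage-like barcodes with T transcripts split between the 2 clusters unequally across libraries. In aPD-L1 82 were in the cluster led by Il1b and 99 in the one led by Atp6v0d2, in Oxali 47 and 80, in Combo 29 and 65, and in Ctrl 106 and 41. These sizes are given as the numbers behind the levels and not as a result, because genes that define the clusters, such as C1qb, themselves differed between libraries. Within the cluster led by Il1b the ratio of the 4-gene sum to Ctrl was 1.05 in aPD-L1, 1.45 in Oxali and 1.46 in the Combo library. Within the cluster led by Atp6v0d2 it was 0.96 in aPD-L1, 1.42 in Oxali and 2.30 (2.04 to 2.61) in Combo, the only one of these 6 ratios that reached 1.5-fold. The call on H2-Ab1 in aPD-L1 did not hold within either cluster, where its ratio was 0.78 and 0.85. Ciita kept a ratio of 0.59 (0.30 to 1.09) in the cluster led by Il1b, with an interval that included 1, and had 0 UMIs in aPD-L1 and in Ctrl in the other cluster. Another clustering, in which genes were scaled first, gave ratios of 1.16, 1.55 and 1.80 within a cluster led by Cxcl2 and of 1.07, 0.66 and 1.16 within a cluster led by C1qc, for aPD-L1, Oxali and Combo in that order. The ratio in Oxali therefore lay above 1 or below 1 depending on how the second cluster was drawn.

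**Figure D3:**
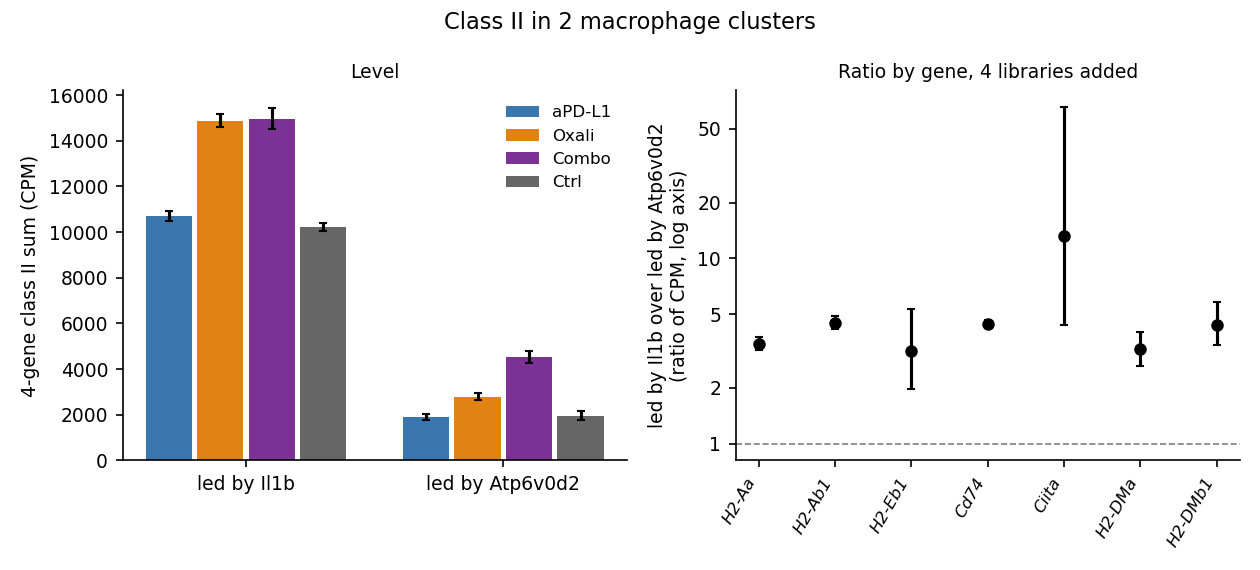
Left, summed level of H2-Aa, H2-Ab1, H2-Eb1 and Cd74 (CPM) in 2 clusters of macrophage-like barcodes, with 1 bar per library and exact Poisson 95% intervals. Right, ratio of CPM of the cluster led by Il1b to the cluster led by Atp6v0d2 for each member (log axis, 4 libraries added, exact 95% intervals, a count under 3 UMIs set to 3), above 1 for all 7 genes. The share of all genes above 1 was not computed.

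The 43 macrophage-like barcodes with fewer than 3 T marker UMIs had a higher class II CPM than those with T transcripts, and the difference was smallest in aPD-L1. In aPD-L1 the 4-gene sum was 7701 CPM in barcodes with T transcripts and 10646 CPM in barcodes with few, and the ratio of 0.72 (0.65 to 0.81) was not called. In Oxali it was 10105 CPM with T transcripts and 46222 CPM with few, in Combo 9630 CPM and 37942 CPM, and in Ctrl 9322 CPM and 26845 CPM, with ratios of 0.22, 0.25 and 0.35 that were all called lower. The barcodes with few T transcripts numbered only 13 in aPD-L1, 10 in Oxali, 12 in Combo and 8 in Ctrl, and 1 barcode held 71.0% of the class II UMIs in aPD-L1. Depth differed too. The median with few was 1690 UMIs in aPD-L1, 6945.5 in Oxali, 6570.5 in Combo and 3349 in Ctrl. With T transcripts it was 4899, 5554, 4601 and 8405.5 in the same order, and the part of depth was not tested. The members stood on the same side. With the libraries added, H2-Ab1 was at 1645 CPM with T transcripts and 7110 CPM with few, Cd74 at 6005 CPM and 22303 CPM, and H2-DMa at 203 CPM and 627 CPM in the same order. The ratios of the 7 members lay between 0.11 (0.08 to 0.15) for H2-Eb1 and 0.32 (0.27 to 0.39) for H2-DMa, where the 7 macrophage genes named next were at 0.68 (0.67 to 0.70). That value for the macrophage genes did not hold in Oxali, where they were lower in barcodes with few T transcripts. They had 16053 of 1068385 UMIs there with T transcripts and 933 of 83337 with few. After thinning, 2 of the 10 Oxali barcodes with few had a C1q UMI.

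T-cell RNA adds to the total of a barcode and so lowers the CPM of every macrophage gene in it. Class II was therefore also set against the 7 macrophage genes C1qa, C1qb, C1qc, Apoe, Lyz2, Csf1r and Cd68. Per 100 UMIs of these genes, barcodes with T transcripts had 43.0 class II UMIs in aPD-L1, 67.3 in Oxali, 62.3 in Combo and 68.5 in Ctrl. Barcodes with few T transcripts had 24.0 in aPD-L1, 413 in Oxali, 144 in Combo and 145 in Ctrl. On this scale the difference had the opposite sign in aPD-L1, and barcodes with few T transcripts stayed higher in the other 3 libraries.

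The 2 groups of macrophage-like barcodes also differed in other genes of the pathway and marker lists, of which those given here were picked after their values had been seen. With the libraries added, barcodes with T transcripts had 17.2 CPM of Cd40, a costimulatory receptor, 25.7 CPM of H2-DMb2, a further DM β chain, 187 CPM of Spi1, a myeloid transcription factor, and 1807 CPM of Ctss, the protease that trims the invariant chain. Barcodes with few T transcripts had 166 CPM of Cd40, 158 CPM of H2-DMb2, 653 CPM of Spi1 and 3692 CPM of Ctss. The dendritic markers Xcr1, Clec9a and Flt3 had 3, 3 and 6 UMIs in barcodes with T transcripts and 0 UMIs each in barcodes with few. Clec10a and Batf3, which are shared by dendritic cells and other myeloid cells, had 102 and 30.2 CPM with T transcripts and 346 and 149 CPM with few. The whole list of 10 dendritic markers summed to 151 CPM with T transcripts and 593 CPM with few, and 12.2% and 30.2% of barcodes had 3 or more of its UMIs. By library, barcodes with few had 382 CPM of the list in aPD-L1, 792 CPM in Oxali, 600 CPM in Combo and 245 CPM in Ctrl. Of the 10 such barcodes in Oxali, 5 had 3 or more of its UMIs, so that the macrophage name is less certain there. Ccl22 had 7 UMIs with T transcripts and 8 with few, and Fscn1 had 2 in each. The part of dendritic RNA in the class II difference was not tested. The 8 monocyte genes summed to 1746 CPM with T transcripts and 3043 CPM with few.

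Sorting all 593 macrophage-like barcodes by the T share of their T and macrophage marker UMIs gave the level in steps. The 4-gene sum was 20151 CPM in the 108 barcodes with a T share under 10%, 10913 CPM in 133 barcodes at 10 to 25%, 7604 CPM in 196 at 25 to 50%, 5316 CPM in 131 at 50 to 75% and 3728 CPM in 25 above 75%. Per 100 UMIs of the 7 macrophage genes it was 55.5, 55.9, 85.9, 150 and 234 in the same order. Class II was lower at a higher T share on the first scale and higher on the second, and the 7 macrophage genes are themselves part of the sorting. Neither order was complete within every library. Per 100 UMIs of the macrophage genes, no single library went up at every step, and Combo had 99.6, 63.3, 69.5, 71.4 and 42.0. In CPM, aPD-L1 and Combo went down at every step, while Oxali had 4919 CPM at 50 to 75% and 6853 CPM above 75%, and Ctrl had 6712 CPM at 25 to 50% and 8400.5 CPM at 50 to 75%. The last step rests on Oxali, which held 11 of its 25 barcodes and 394 of its 445 class II UMIs.

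Genes whose level was most like class II over macrophage-like barcodes were found by the Spearman correlation with the 4-gene sum within each library, on 567 barcodes thinned to 1500 UMIs, as a description over barcodes that share a library. Of 3174 genes ranked, the first 10 by mean correlation were Ctss at 0.44, Cst3 at 0.34, Psap at 0.33, Plbd1 at 0.31, Fcer1g and Tgfbi at 0.30, Fcgr2b, Tyrobp and Cfp at 0.29 and Tmem176a at 0.28. Ctss and Psap work in the lysosome, Cst3 inhibits such proteases, and Fcer1g, Fcgr2b and Tyrobp encode Fc receptor and adaptor chains of myeloid cells. C1qa ranked 150th at 0.13. The 5 lowest were the ribosomal protein genes Rpl12 at -0.31, Rps15a at -0.28 and Rps13, Rplp1 and Rps15 at -0.27 each. At a fixed total, more T-cell RNA in a barcode leaves fewer UMIs for every myeloid gene. The T markers Cd3d at -0.25, Trac at -0.16 and Cd3e at -0.14 ranked 3165th, 3121st and 3101st. The part of T-cell RNA in this ranking was not tested.

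Among themselves the abundant members followed each other. Over the same barcodes the mean correlation was 0.81 for H2-Ab1 with Cd74, 0.78 for H2-Aa with Cd74 and 0.77 for H2-Aa with H2-Ab1. Cd74 with H2-DMb1 was at 0.51 and Cd74 with H2-DMa at 0.31. Cd74 with Ciita was at 0.16, where most barcodes had no Ciita UMI.

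Of a list of 23 genes of the class II pathway (other class II chains, cathepsins, the RFX and NF-Y factors, Cd80, Cd86 and others), 20 were measured in aPD-L1 with 0 called higher and 3 lower, 21 in Oxali with 1 higher and 3 lower, and 20 in Combo with 0 higher and 2 lower, in macrophage-like barcodes with T transcripts. Over all genes tested, 3.11% were called higher and 8.58% lower in aPD-L1, 2.6% and 5.07% in Oxali, and 4.52% and 5.35% in Combo. The median log2 ratio of the list was -0.12 in aPD-L1, -0.12 in Oxali and -0.05 in the Combo library, where all genes were at -0.04, -0.02 and 0.01 in the same order. Cd83, which stabilizes class II at the cell surface, was at 34.4 CPM in aPD-L1, 35.6 CPM in Oxali, 18.8 CPM in Combo and 71.7 CPM in Ctrl, and was called lower in all 3. Cd86, a costimulatory ligand, was at 32.2 CPM in aPD-L1, 33.7 CPM in Oxali, 25.7 CPM in Combo and 59.5 CPM in Ctrl, and was also called lower in all 3. Irf8, a myeloid transcription factor, was at 80.9 CPM in aPD-L1, 114 CPM in Oxali, 120 CPM in Combo and 157 CPM in Ctrl, called lower in aPD-L1 with a ratio of 0.52 (0.41 to 0.65). Ctrl was thus the highest library for all 3 genes, as it was for the stress genes.

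Of 23 interferon-γ response genes 21 were measured, with 1 called higher and 3 lower in aPD-L1, 2 higher and 1 lower in Oxali and 2 higher and 1 lower in Combo, where all genes tested had 3.11% and 8.58% in aPD-L1, 2.6% and 5.07% in Oxali, and 4.52% and 5.35% in Combo. Cxcl10, a chemokine induced by interferon, was at 78.6 CPM in aPD-L1, 38.4 CPM in Oxali, 63.4 CPM in Combo and 150 CPM in Ctrl, and was called lower in all 3. Ifngr2, a chain of the interferon-γ receptor, was at 69.6 CPM in aPD-L1, 79.6 CPM in Oxali, 46.3 CPM in Combo and 47.3 CPM in Ctrl, called higher in Oxali at 1.68 (1.21 to 2.34). Cd274 (PD-L1) and Jak2, the kinase of that receptor, were called lower in aPD-L1, at 0.57 (0.38 to 0.85) and 0.58 (0.37 to 0.90). Of 13 MHC class I genes 0 were called in aPD-L1, 0 in Oxali and 1 in the Combo library, where the immunoproteasome subunit Psmb9 was at 529 CPM, against 341 CPM in Ctrl.

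Genes of suppressive macrophages and of monocytes were also counted. Of 12 suppressive genes, 1 was called higher and 4 lower in aPD-L1 (11 measured), and 1 higher and 2 lower each in Oxali and Combo (10 measured). Of all genes tested, 8.58% were lower in aPD-L1, 5.07% in Oxali and 5.35% in the Combo library, and 3.11%, 2.6% and 4.52% were higher. Arg1, which depletes arginine, was at 374 CPM in aPD-L1, 1016 CPM in Oxali, 1163 CPM in Combo and 1094 CPM in Ctrl, lower in aPD-L1 at 0.34 (0.31 to 0.38). Mrc1, the mannose receptor, was at 71.1 CPM in aPD-L1, 159 CPM in Oxali, 151 CPM in Combo and 145 CPM in Ctrl, lower in aPD-L1 at 0.49 (0.38 to 0.63). Vegfa was called lower in all 3, with 15 UMIs in aPD-L1, 20 in Oxali, 1 in Combo and 61 in Ctrl. Folr2, a folate receptor of resident macrophages, was called higher in all 3, at 71.9 CPM in aPD-L1, 100.2 CPM in Oxali, 72.0 CPM in Combo and 47.3 CPM in Ctrl. Of the monocyte genes, Chil3, a chitinase-like protein, was called lower in aPD-L1 at 0.32 (0.25 to 0.40), and Fn1 (fibronectin) was called lower in aPD-L1 at 0.35 (0.30 to 0.40) and in Combo at 0.50 (0.42 to 0.59). The aPD-L1 library, lowest in H2-Ab1, was thus also the lowest in Arg1, Mrc1, Chil3 and Fn1.

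Plasmacytoid-like barcodes kept similar class II levels in all 4 libraries. H2-Aa was at 1114 CPM in aPD-L1, 1208 CPM in Oxali, 1356 CPM in Combo and 1178 CPM in Ctrl. H2-Ab1 was at 1194 CPM in aPD-L1, 1031 CPM in Oxali, 1196 CPM in Combo and 1404 CPM in Ctrl. Cd74 was at 7212 CPM in aPD-L1, 6700 CPM in Oxali, 7575 CPM in Combo and 5984 CPM in Ctrl. H2-Aa and Cd74 were thus highest in Combo, while H2-Ab1 was highest in Ctrl. H2-DMa lay between 178 and 209 CPM, H2-DMb1 between 130 and 166 CPM, H2-Eb1 between 22.8 and 35.7 CPM and Ciita between 12.5 and 30.6 CPM.

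Of the 7 members in plasmacytoid-like barcodes, 0 were called in aPD-L1 (7.94% of genes higher and 5.8% lower), 0 in Oxali (5.54% and 6.55%), and in Combo 0 were called higher and 1 lower (5.35% and 5.99%). The 1 was Ciita, with 9 UMIs in Combo and 18 in Ctrl, which gave 0.41 (0.16 to 0.96), and at 0.43 (0.16 to 1.08) without the barcode with most class II of each library it was not called. The 4-gene sum was at 1.11 (1.05 to 1.17) in aPD-L1, 1.04 (1.00 to 1.09) in Oxali and 1.18 (1.14 to 1.22) in Combo. Macrophage RNA in these barcodes differed in the other direction, with a C1q sum of 200 CPM in aPD-L1, 462 CPM in Oxali, 381 CPM in Combo and 888 CPM in Ctrl, and its part in the class II values was not tested. Most plasmacytoid-like barcodes, 83.3% of them, also carried 3 or more T marker UMIs. The CPM of the 4-gene sum with T transcripts over that with few was 0.89 in aPD-L1, 1.53 in Oxali, 0.53 in Combo and 1.15 in Ctrl, with no common direction, and only 9, 3, 13 and 12 barcodes had few. Of the 23 class II pathway genes, 2 were called higher and 2 lower in aPD-L1 (14 measured), 1 higher and 3 lower in Oxali (15 measured) and 3 higher and 5 lower in Combo (18 measured). Plasmacytoid-like barcodes had more class II for their C1q than macrophage-like ones, 1725 UMIs per 100 of C1q against 258 in all macrophage-like barcodes.

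T-like barcodes held little class II, and its make-up differed from that of the myeloid classes. H2-Aa was at 43.8 CPM in aPD-L1, 42.2 CPM in Oxali, 53.7 CPM in Combo and 34.9 CPM in Ctrl. H2-Ab1 was at 33.5 CPM in aPD-L1, 31.6 CPM in Oxali, 64.7 CPM in Combo and 39.4 CPM in Ctrl. Cd74 was at 159 CPM in aPD-L1, 161 CPM in Oxali, 135 CPM in Combo and 132 CPM in Ctrl. The I-A chains were thus highest in Combo and Cd74 was not. H2-DMa was at 38.6 CPM in aPD-L1, 39.3 CPM in Oxali, 33.5 CPM in Combo and 26.0 CPM in Ctrl. H2-DMb1, its partner chain, lay between 2.13 and 4.83 CPM, H2-Eb1 between 1.22 and 2.60 CPM and Ciita between 0.30 and 4.84 CPM, from 1, 2, 11 and 2 Ciita UMIs in aPD-L1, Oxali, Combo and Ctrl.

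H2-DMa was the member that set T-like barcodes apart from macrophage-like and plasmacytoid-like ones, but other lymphocytes had high shares too. With the libraries added, its share of the UMIs of the 7 members was 12.7% in T-like barcodes. It was 8.65% in lymphocytes led by Klrc2, 8.31% in those led by Tnfrsf4 and 4.35% in NK-like barcodes. By library, H2-DMa made up 13.9% of the UMIs of the 7 members in T-like barcodes in aPD-L1, 13.9% in Oxali, 11.3% in Combo and 10.9% in Ctrl. In macrophage-like barcodes with T transcripts it made up 1.83% in aPD-L1, 2.40% in Oxali, 2.04% in Combo and 2.24% in Ctrl, and in plasmacytoid-like barcodes 2.07%, 2.24%, 1.70% and 2.27% in the same order. The share in T-like barcodes was the higher one in every library, whereas H2-DMb1 had shares close to each other in these 3 classes, 1.25% in T-like, 1.67% in macrophage-like and 1.46% in plasmacytoid-like barcodes with the libraries added. Cd74 made up 45.6% to 57.2% of the class II UMIs in T-like barcodes, 61.4% to 67.9% in macrophage-like and 66.6% to 72.5% in plasmacytoid-like barcodes. Shares are compared here between classes and not between genes, since genes differ in how well a transcript is captured. The model of H2-DMa (17, 34119541 to 34139101, plus strand) overlaps Brd2 on the minus strand, and that of H2-Eb1 (34305867 to 34316674, plus strand) overlaps Gm20513, and these 2 values are therefore less certain than the others.

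**Figure D4:**
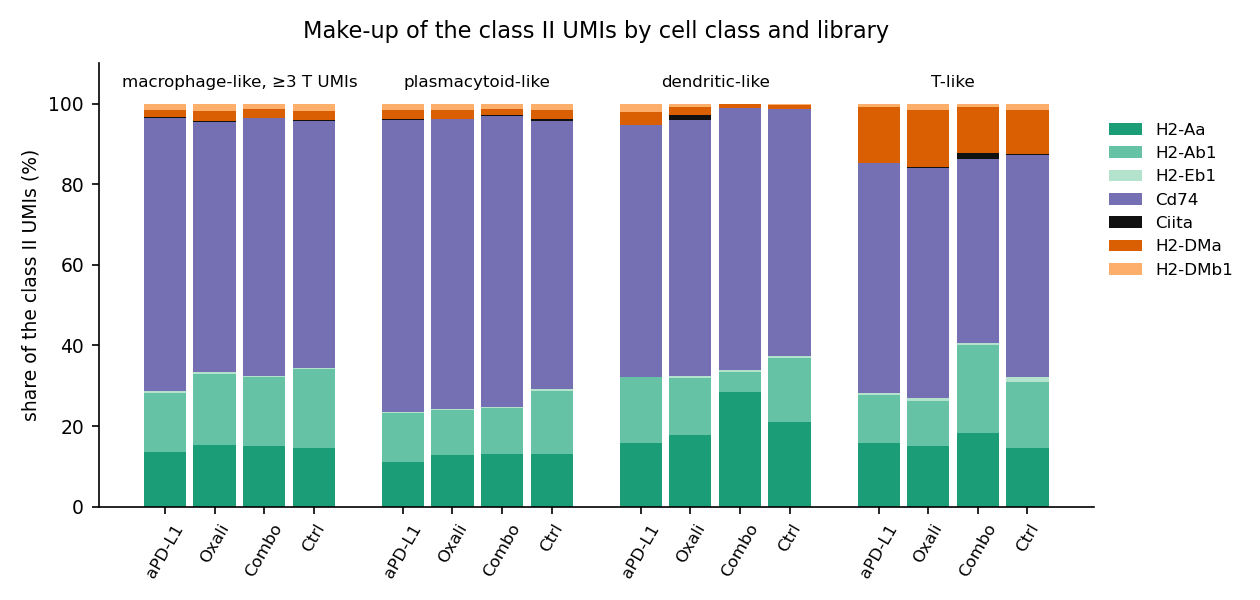
Share of each member in the summed UMIs of the 7 genes (%), with 1 bar per library for macrophage-like (with T transcripts), plasmacytoid-like, dendritic-like and T-like barcodes. The band of H2-DMa is 10.9% to 13.9% in T-like bars and 1.70% to 2.40% in macrophage-like and plasmacytoid-like bars.

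Every T-like cluster had H2-DMa, from 23.5 CPM in the cluster led by Gzma and Ccl5 and 23.9 CPM in the dividing cluster led by Hist1h1b and Pclaf, to 41.3 CPM in the cluster led by Trim30c and Ifit3 and 49.8 CPM in the cluster led by Dapl1 and Igfbp4. NK-like barcodes had 36.7 CPM and the cluster with Krt7 and Cldn3 had 0 UMIs, with an exact Poisson upper bound of 6.31 CPM.

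Class II in T-like barcodes was higher where more UMIs of a macrophage marker list were seen, except for H2-DMa. T-like barcodes were divided by their UMIs of the 14 macrophage markers into 820 with none, 844 with 1 or 2 and 1481 with 3 or more. The list holds Ly6c2, seen in 54.3% of T-like barcodes, at 739 CPM against 401 CPM in macrophage-like barcodes with T transcripts. T-like barcodes had 8397 UMIs of Ly6c2, 2154 of Apoe, 1234 of Lyz2 and 725 of C1qa. The division is thus in large part by Ly6c2 and not by macrophage RNA alone. The 4-gene sum was 102 CPM (88.3 to 116) with none, 142 CPM (127 to 157) with 1 or 2 and 309 CPM (296 to 322) with 3 or more. H2-DMa was 44.3 CPM (35.7 to 54.3) with none, 30.8 CPM (24.3 to 38.5) with 1 or 2 and 33.3 CPM (29.1 to 38.0) with 3 or more. The 4 genes were thus higher where UMIs of these markers were more, and H2-DMa was not. The parts of macrophage RNA and of Ly6c2 in this order were not tested.

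Depth could give such an order, since deep barcodes hold more UMIs of everything. Class II UMIs were therefore also counted in barcodes thinned to 1500 UMIs, and 253 shallower ones were left out. The division kept the macrophage marker UMIs counted before thinning. It can thus still follow depth, and the part of depth in the order was not tested. A UMI of the 4 genes was then seen in 7.50% (5.67 to 9.69) of T-like barcodes with no macrophage UMI, 12.9% (10.6 to 15.5) with 1 or 2 and 21.4% (19.3 to 23.6) with 3 or more. H2-DMa was seen in 7.21% (5.42 to 9.38), 4.88% (3.46 to 6.67) and 4.70% (3.66 to 5.92) in the same order. Before thinning, Cd74 was seen in 18.7% and H2-DMa in 10.5% of T-like barcodes. As a class that should lack these genes, the cluster with Krt7 and Cldn3 had a UMI of the 4 genes in 3 of 45 thinned barcodes, or 6.67% (1.40 to 18.3), and of H2-DMa in 0 of 45, which allows up to 7.87%. The median depth was 2730 UMIs in T-like barcodes and 2140 in that cluster. By share of barcodes, T-like barcodes with no macrophage UMI lay within that wide interval and the 21.4% with 3 or more lay above it. By CPM all were above it, since the 102 CPM of T-like barcodes with no macrophage UMI stood against 13.7 CPM (5.91 to 27.0, from 8 UMIs) in the cluster with Krt7 and Cldn3.

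**Figure D5:**
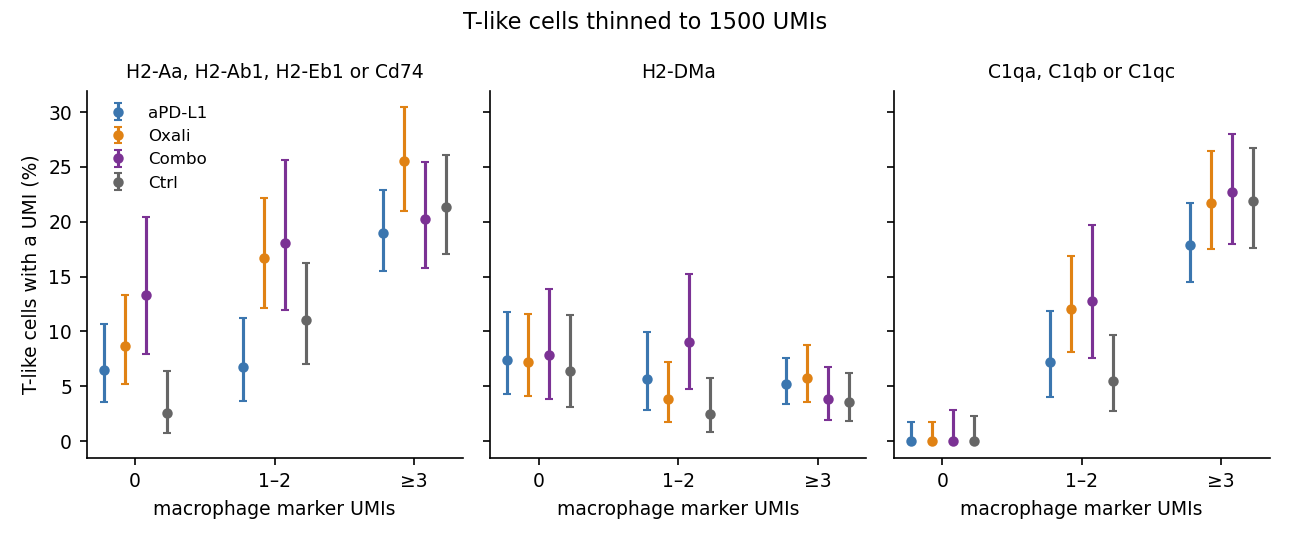
Share of T-like barcodes with a UMI after thinning to 1500 UMIs (%), by macrophage marker UMIs of the barcode before thinning, with 1 point per library and exact binomial 95% intervals. The 4 class II genes go up to 19.0% to 25.5% of barcodes with 3 or more macrophage UMIs, H2-DMa stays between 2.51% and 9.02%, and the C1q genes start at 0 because they are among the markers used for the division.

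A few barcodes carried much of the class II in T-like cells. Barcodes with 10 or more UMIs of the 4 genes numbered 16 of 975 in aPD-L1, 13 of 876 in Oxali, 4 of 583 in Combo and 10 of 711 in Ctrl. Together these 43 barcodes (1.37%) held 42.2% of the class II UMIs of T-like cells. Of them 40 had 3 or more macrophage marker UMIs, 28 had a C1q UMI, 14 had a UMI of 5 plasmacytoid genes and 6 had 3 or more B-cell marker UMIs. Of all T-like barcodes 47.1% had 3 or more macrophage marker UMIs and 2.64% had 3 or more B-cell marker UMIs. C1qa was seen in 12.3% of all T-like barcodes and Pacsin1, which is among the 5 plasmacytoid genes, in 11.2%. The 43 barcodes were also deeper, with a median of 6017 UMIs against 2730, and the part of depth was not tested. Without the 43 barcodes the 4-gene sum was 109 CPM in aPD-L1, 155 CPM in Oxali, 182 CPM in Combo and 121 CPM in Ctrl.

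Against Ctrl, the 4-gene sum in T-like barcodes was at 1.14 (1.02 to 1.27) in aPD-L1, 1.14 (1.02 to 1.27) in Oxali and 1.22 (1.08 to 1.37) in Combo, none of them called. In aPD-L1 0 of 4 members with 20 or more UMIs were called, where 2.27% of genes were called higher and 5.12% lower. In Oxali 1 of 5 was called higher, where 2.43% of genes were higher and 5.43% lower. This was H2-DMa, at 1.51 (1.12 to 2.06), while aPD-L1 was just under the limit at 1.49 (1.10 to 2.02). The call on H2-DMa in Oxali was lost under 9 alternatives, with 1.47 when class II genes entered the clustering and 1.07 (0.53 to 2.22) in T-like barcodes with no macrophage marker UMI. In Combo 2 of 4 were called higher, where 6.58% of genes were higher and 4.83% lower. These were H2-Aa at 1.54 (1.17 to 2.03) and H2-Ab1 at 1.64 (1.27 to 2.13). A single Combo barcode held 22.8% of the 4-gene sum, and without the barcode with most class II of each library the Combo ratios were 1.19 for H2-Aa and 1.02 for H2-Ab1, so both calls rested on it. Ciita, with 11 UMIs in Combo and 2 in Ctrl, was under the limit of 20 UMIs. The C1q sum in T-like barcodes was 151 CPM in aPD-L1, 145 CPM in Oxali, 118 CPM in Combo and 169 CPM in Ctrl, highest where class II was lowest. Of the class II pathway genes 0 were called higher and 2 lower in aPD-L1 and in Oxali (18 measured in each), and 2 higher and 2 lower in Combo (19 measured). The mix of T-like clusters also differed. The cluster led by Hspa1a held 100 barcodes of aPD-L1, 59 of Oxali, 47 of Combo and 427 of Ctrl, and the one led by Dapl1 218, 280, 76 and 114. H2-DMa was at 34.6 and 49.8 CPM in these clusters and the 4-gene sum at 334 and 144 CPM. The part of this mix in the ratios to Ctrl was not tested.

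The comparison with Ctrl differed in T-like barcodes with no macrophage marker UMI, where counts were small. The 4-gene sum had 81 UMIs in 254 barcodes of aPD-L1 (132 CPM), 75 in 250 of Oxali (120 CPM), 37 in 150 of Combo (97.7 CPM) and 18 in 166 of Ctrl (39.3 CPM). The ratios to Ctrl were 3.35 (1.99 to 5.94) in aPD-L1, 3.04 (1.80 to 5.41) in Oxali and 2.48 (1.38 to 4.64) in Combo, all called higher. In aPD-L1 1 barcode held 67.9% of the 4-gene sum, and it also carried 22 B-cell marker UMIs. Without the barcode with most class II of each library the ratio was 1.29 (0.66 to 2.62) in aPD-L1, 2.37 (1.30 to 4.55) in Oxali and 2.76 (1.47 to 5.46) in Combo. After thinning, a UMI of the 4 genes was seen in 6.51% of these barcodes in aPD-L1, 8.65% in Oxali, 13.3% in Combo and 2.56% in Ctrl. The intervals were 3.61 to 10.7 in aPD-L1, 5.21 to 13.3 in Oxali, 7.93 to 20.4 in Combo and 0.70 to 6.43 in Ctrl, so that the interval of Combo alone lay wholly above that of Ctrl, and all 4 overlapped the wide interval of the cluster with Krt7 and Cldn3, which rests on 45 barcodes. By CPM the intervals of the 4-gene sum were 105 to 164 in aPD-L1, 94.1 to 150 in Oxali and 68.8 to 135 in Combo, above the 5.91 to 27.0 CPM of that cluster, while 23.3 to 62.2 CPM in Ctrl overlapped it. The CPM of that cluster weights its deep barcodes most, so these positions hold for summed UMIs only.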

How the data were processed

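Libraries were made with the Chromium 3′ kit, version 3. The deposited values are UMI counts per gene and barcode, which the authors obtained with Cell Ranger 3.1.0 on mm10 (GRCm38). The annotation release is not given in the sources used here. Counts were whole numbers and had not been normalized.

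Barcodes that reached 500 genes without passing 10% mitochondrial UMIs were scaled to 10000 UMIs and log-transformed. Leiden clustering at resolution 1 used 2000 variable genes without class II, 30 components and 15 neighbors (scanpy 1.11.5, igraph 0.11.9, SciPy 1.17.1, numpy 2.4.6, matplotlib 3.10.9, Python 3.11.15). A cluster took the class with the highest mean fold of its markers, or T-like where T markers prevailed, and 2 clusters stayed unnamed. The cluster led by Tnfrsf4 scored highest for CD4 T markers. Scrublet, with an expected rate of 5%, marked 3 barcodes in aPD-L1, 0 in Oxali, 6 in Combo and 14 in Ctrl, too few to have worked, so doublets remained.

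UMIs were summed per class and library. Intervals are exact Poisson for CPM, exact binomial conditioned on both counts for ratios and Clopper-Pearson for shares, at 95%, with counts under 3 set to 3 in ratios of CPM and 20 UMIs in the 2 libraries required of a tested gene. With 1 library per group no p-value was computed. The fold and interval steps were tested on simulated data. Named genes were the 7 members, the 10 genes most and 5 least like class II among those with 200 UMIs, and up to 4 called members of each list with 50 UMIs in a library. The members, lists and tests were chosen with earlier results of these data known. Promoters came from RefSeq (GRCm38.p6) and gene positions from GENCODE M21. Alternatives covered clustering, filters, doublets, thinning, scaling, the fold and single barcodes. A gene of the monocyte list is not reported here.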

Additional observations from a re-analysis of the deposited data

How the results depend on the processing

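No paired analysis was possible because each group was 1 library. Of 174 recomputed values of the 4-gene sum against Ctrl or between macrophage-like barcodes with and without T transcripts, 151 stayed as they were, 23 gained a call and none lost one. No ratio of the 4-gene sum to Ctrl was called at first, nor was the aPD-L1 ratio with against few T transcripts. Most of these values therefore had no call to lose, and a gained call was counted whichever side of 1 it lay on. Of 915 values of single members and of shares of genes called, 776 were the same, 79 gained a call, 51 lost one and 9 moved. No call of the main setting turned round, which says nothing of values that had no call there.
For macrophage-like barcodes with T transcripts the 4-gene sum in aPD-L1 was 0.63 when scaled to 7 macrophage genes. In Oxali it was 1.53 under a stricter filter of 1000 genes and 5% mitochondrial UMIs, and, added after seeing the data, 1.55 in the cluster led by Cxcl2 and 0.66 in the one led by C1qc. In Combo it was 1.71 with class II genes in the clustering, 1.58 under the stricter filter and, added later, 2.30 in the cluster led by Atp6v0d2 and 1.80 in the one led by Cxcl2. With class II in the clustering, the stricter filter or the other start, the cluster rich in C1q stayed unnamed, so that fewer barcodes entered. In plasmacytoid-like barcodes the mean of the per-cell shares gave 1.57 in Combo.
For T-like barcodes the 4-gene sum in aPD-L1 was 0.63, on the other side of 1, with classes from marker UMIs alone, 1.60 as a mean of per-cell shares and 1.52 from another random start, added later. With no macrophage marker UMI it was 3.35 in aPD-L1, 3.04 in Oxali and 2.48 in the Combo library, and also without the top barcode 2.37 in Oxali and 2.76 in Combo. With scaled genes, added later, Combo was at 1.78. Macrophage-like barcodes with against few T transcripts in aPD-L1 were at 0.52 and 0.37 with limits of 1 and 10 T marker UMIs, 1.79 scaled to 7 macrophage genes, 2.20 under the stricter filter, which left 1 barcode with few, and 0.56 with scaled genes. The causes were not tested. Depth limited Ciita, H2-Eb1 and T-like H2-DMb1 most, and classes of few barcodes rested on single ones.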
